A study of Mus musculus with 8 samples.

Results

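The 8 genes described here encode a set of vascular growth factors and their receptors, namely the VEGF ligands *Vegfa*, *Vegfb* and *Vegfc*, the VEGF receptors *Flt1*, *Kdr* and *Flt4*, the ligand *Angpt1* and its receptor *Tek*. They were chosen by symbol, 8 of the 33696 genes in the files, with earlier results of these data known. RNA was measured in single nuclei of the mouse optic nerve (ON) at P120, in 8 libraries from female mice on a C57BL/6J background, each made from 6 pooled ONs. The question addressed was where these genes are expressed in the adult ON and whether their level differs between the genotypes, with *Vegfa* in oligodendrocyte precursor cells (OPCs) as the main item.

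The 4 control libraries (replicates 1 to 4) carried 2 floxed *Piezo2* alleles (Piezo2f/f) and no Cre. The other 4 libraries (replicates 10 to 13) were labelled as conditional knockouts (cKO) of the genotype *Olig2*-cre;Piezo2f/f. Here Cre is driven from the *Olig2* locus, which is active in the oligodendrocyte (OL) lineage and in some astrocytes. The floxed alleles are shared by both groups, whereas Cre and the altered *Olig2* allele are carried by the cKO group alone. A deletion of *Piezo2*, the presence of Cre and the loss of an *Olig2* allele therefore cannot be told apart in this design.

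VEGF ligands are secreted proteins that bind receptor tyrosine kinases, which in most tissues are found on endothelial cells. *Kdr* (VEGFR2) carries most of the signal for growth and permeability of blood vessels, *Flt1* (VEGFR1) binds *Vegfa* tightly and limits what reaches *Kdr*, and *Flt4* (VEGFR3) is the receptor of *Vegfc* and is best known from lymphatic vessels. *Angpt1* is made by cells around vessels and activates *Tek* (Tie2) on the endothelium, which keeps vessels quiescent and tight. In nervous tissue *Vegfa* is made mainly by astrocytes and other glia, and its transcription is raised by low oxygen through the hypoxia-inducible factors.

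All 8 genes were matched to the mouse annotation of GRCm39, where they are protein coding. The ligands lie on chromosome 17 (46327919 to 46343309, minus strand, *Vegfa*), chromosome 19 (6958447 to 6965127, minus strand, *Vegfb*), chromosome 8 (54530257 to 54640131, plus strand, *Vegfc*) and chromosome 15 (42288058 to 42540417, minus strand, *Angpt1*). *Flt1* (147498414 to 147662826, minus strand) and *Kdr* (76093487 to 76139884, minus strand) are both on chromosome 5, *Flt4* is on chromosome 11 (49500090 to 49543582, plus strand) and *Tek* on chromosome 4 (94627291 to 94763224, plus strand). The reads come from the 3-prime ends of transcripts and were counted per gene, so the soluble and membrane forms of *Flt1* were not separated.

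A library held 39628926 to 56541132 unique molecular identifiers (UMIs, each standing for 1 captured transcript), and the median nucleus of a library carried 2377 to 3314. After filtering, 37274 nuclei remained, of which 33642 lay in clusters that could be named from marker genes. Any pair of libraries shared 1 to 10 nucleus barcodes. Among the named nuclei were 19155 OLs, 8077 astrocytes, 3453 fibroblasts, 1314 myeloid cells, 729 OPCs, 280 endothelial cells, 250 neurons, 143 committed OPCs, 98 border-associated macrophages, 81 T cells and 62 mural cells. The markers of every type were highest in that type, which held for 6 of 6 OPC markers and 8 of 8 endothelial markers. The clusters were named from these same markers, so this is no independent check of the names. The endothelial nuclei also carried mural transcripts (*Rgs5* at 617.5 CPM and *Abcc9* at 179.5 CPM, against 1426 and 1478 CPM in mural nuclei). Control replicate 3 held 99 of the 250 neurons, and 53.5% of the 735 nuclei of the astrocyte cluster led by *Synpo2* came from control replicate 1. The study takes its own neurons to be probably brain tissue carried over at dissection. Levels in neurons given below may therefore not be those of the ON.

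The UMIs of all nuclei of a type were added up within each library, and levels are given in CPM, the UMIs of a gene per 1000000 UMIs of such a sum. Where 4 values are given for a group, they follow the order of its replicates. The level of a gene is compared between cell types only, because transcript length and the capture of intronic reads differ between genes. Fewer transcripts per cell and fewer cells of a subtype within a type cannot be told apart in such sums. SDs of levels and shares are over the 4 libraries of a group, and those of differences between cell types over all 8 libraries. The genotype comparison used edgeR's quasi-likelihood test over all genes of a cell type, and a gene was called where its p after Benjamini-Hochberg adjustment was below 0.05 and its log2 fold change exceeded 0.5 in either direction. Its p-values measure the spread between libraries of pooled nerves, with the spread of each gene drawn toward that common to the genes. *Vegfa* in OPCs was thus tested with 31.0 degrees of freedom, more than its 8 libraries alone give.

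The labels were checked on the targeted gene. *Piezo2* in OLs was at 504.8, 388.7, 407.8 and 488.8 CPM in the controls and 529.4, 533.6, 570.6 and 522.8 CPM in the other libraries (log2 fold change 0.25, SE 0.11, edgeR adjusted p = 0.534), so it was not lower in the second group. The methods of the study place the deleted sequence in a few exons. Counts per gene do not separate reads of these exons from those of the rest of the transcript, so these values do not check the deletion. *Olig2* in OPCs, at 110.0 to 245.2 CPM in the controls and 212.6 to 382.5 CPM in the second group, was not lower either (log2 fold change 0.70, SE 0.21, edgeR adjusted p = 0.208; without the filter on low counts it was called as higher). The second group is named by its label only, as the libraries labelled cKO.

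The ligands and receptors divided by cell type. In the control libraries, *Vegfa* was highest in OPCs and astrocytes, *Angpt1* in astrocytes, *Vegfc* and the receptors *Flt1*, *Kdr*, *Flt4* and *Tek* in endothelial cells, and *Vegfb* in no particular type. For each of *Flt1*, *Kdr*, *Flt4*, *Tek*, *Angpt1* and *Vegfc* the highest type stood above the second in 8 of 8 libraries. Neighbouring types in the order of control levels were compared within libraries by exact sign-flip tests on log2(CPM + 1), two-sided, with adjustment over all 56 neighbour pairs. With 8 libraries such a test cannot give a p below 0.00781, which is 0.0337 after adjustment. Differences between types given below pool the libraries of both groups and are on that log2(CPM + 1) scale, which understates those of low genes.

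**Figure D1:**
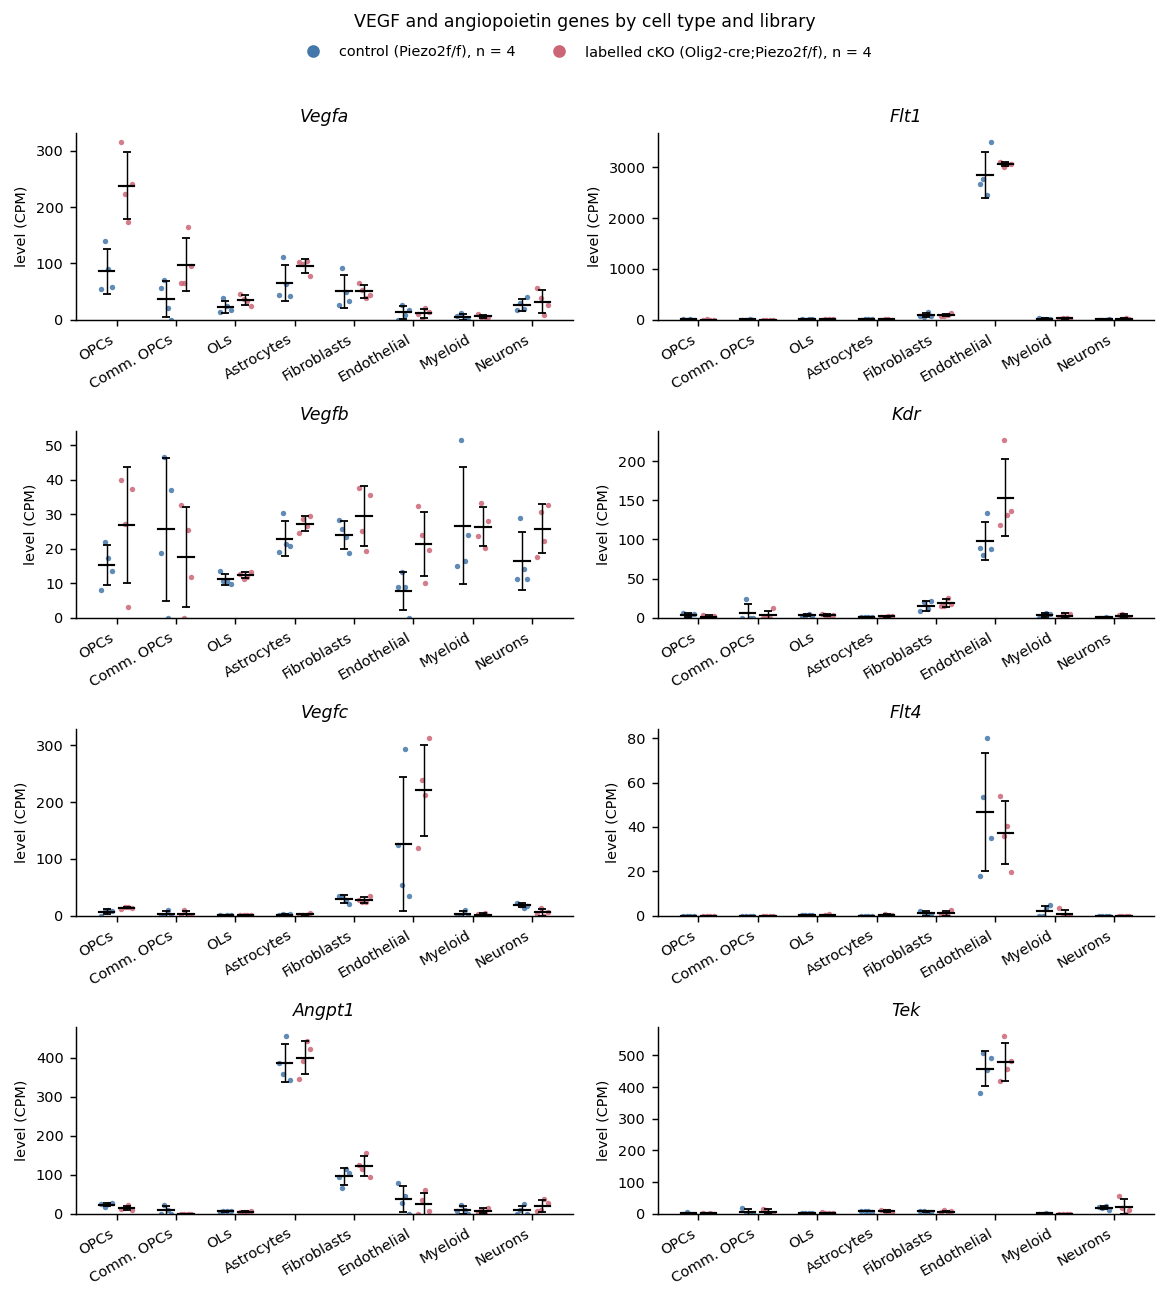
Level in CPM (y axis, separate scale in each panel) of the 8 genes in the 8 cell types tested (x axis), with 1 point per library for the control libraries and the libraries labelled cKO and with mean and SD over 4 libraries. *Vegfa* in OPCs lies at 53.7 to 140.2 CPM in the controls and 173.9 to 315.9 CPM in the other group, *Angpt1* stands out in astrocytes, and *Flt1*, *Kdr*, *Flt4*, *Tek* and *Vegfc* stand out in endothelial cells.

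*Vegfa*, the main ligand of the family, was highest in OPCs, astrocytes and fibroblasts of the control ON. OPCs had 85.6 CPM ± 39.7 (SD, n = 4), astrocytes 65.2 CPM ± 31.8, fibroblasts 50.2 CPM ± 29.4, committed OPCs 36.8 CPM ± 32.0, neurons 26.1 CPM ± 10.4, OLs 22.8 CPM ± 10.8, endothelial cells 13.3 CPM ± 11.5 and myeloid cells 4.26 CPM ± 5.34. Committed OPCs were at 69.0 CPM under a coarser clustering (Leiden resolution 1.5), which gave that name to another set of nuclei. OPCs stood above astrocytes in 8 of 8 libraries (mean log2 difference 0.84 ± 0.55 over both groups, exact adjusted p = 0.0337). The mean log2 ratio of CPM was 0.40 ± 0.11 in the controls, or 1.32-fold, and 1.29 ± 0.43 in the libraries labelled cKO. Astrocytes stood above fibroblasts in 8 of 8 (0.67 ± 0.37, exact adjusted p = 0.0337). None of the further neighbours was set apart at an adjusted p under 0.05, the nearest being OLs over endothelial cells (7 of 8 libraries, exact adjusted p = 0.0515). Endothelial nuclei carried few *Vegfa* UMIs, with 4 in 116 nuclei of the controls and 5 in 164 of the libraries labelled cKO. In the 32 mural nuclei of the controls 0 UMIs were found, which allows up to 54.9 CPM (3 UMIs), a bound above the fibroblast mean. Barcodes without a called nucleus, termed droplets here, were taken as the free RNA of the preparation. Those of 1 to 100 UMIs numbered 674681 to 916077 per library and held 882675 to 1294855 UMIs, few per barcode. Whether they were droplets of free RNA was not tested. In the controls *Vegfa* was at 48.1 CPM ± 25.3 in barcodes of 1 to 100 UMIs and 21.1 CPM ± 10.0 in those of over 100 and up to 500 UMIs. Endothelial and myeloid cells lay below both of these values. OPCs, astrocytes and, by little, fibroblasts lay above both, and committed OPCs, neurons and OLs between them.

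Within a type, the *Vegfa* level of single clusters was pooled over the 8 libraries and is given with exact 95% intervals, which cover counting error only. Across 7 astrocyte clusters *Vegfa* ran from 57.0 CPM (48.7 to 66.4) in the *Synpo2*-led cluster to 100.5 CPM (85.4 to 117.6) in a cluster led by *C530044C16Rik* and *Slc1a2*. The *Synpo2*-led cluster drew 53.5% of its nuclei from control replicate 1, where astrocytes held *Vegfa* at 44.2 CPM, against 42.4 to 110.7 CPM over all 8 libraries. Clusters were not compared within libraries, so a cluster's place and that of its libraries cannot be told apart. Fibroblast clusters differed more. The cluster led by *Flrt2*, *Lama1* and *Eln*, genes of the extracellular matrix and its adhesion, had 81.7 CPM (72.5 to 91.8) and the cluster led by *Prg4* had 12.8 CPM (7.2 to 21.2).

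*Vegfb*, a ligand of *Flt1* alone, had no type of its own. Its control means ran from 7.78 CPM ± 5.60 in endothelial cells to 26.7 CPM ± 17.0 in myeloid cells, and no neighbouring types were set apart. Free RNA was at 24.9 CPM ± 5.82 in the droplets of 1 to 100 UMIs and 29.4 CPM ± 3.65 in those of over 100 and up to 500 UMIs, and the means of all types compared lay below the second of these values.

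*Vegfc*, the ligand of *Flt4*, was highest in endothelial cells, where the controls had 124.3, 53.4, 293.6 and 35.2 CPM. The spread was wide, with 53 UMIs in all. Among the 8 types tested, fibroblasts followed with 29.3 CPM ± 7.10 and neurons with 18.2 CPM ± 3.45. Each step down held in 8 of 8 libraries (log2 difference 2.26 ± 1.12 and 1.63 ± 1.47, exact adjusted p = 0.0337 for both). *Vegfc* was at 7.04 CPM ± 4.75 in OPCs, 1.98 CPM ± 0.33 in astrocytes and 0.863 CPM ± 0.60 in OLs.

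*Angpt1*, which activates *Tek*, marked astrocytes. The controls had 387.9, 360.0, 456.3 and 344.4 CPM there, and the 4 libraries labelled cKO lay between 345.8 and 442.9 CPM. Fibroblasts held 95.6 CPM ± 20.7 in the controls, lower than astrocytes in 8 of 8 libraries (log2 difference 1.87 ± 0.32, exact adjusted p = 0.0337). Among the 8 types tested, endothelial cells followed with 37.8 CPM ± 33.5, OPCs with 23.3 CPM ± 4.07 and OLs with 6.11 CPM ± 0.85 (1.81 CPM after subtraction of free RNA). Free RNA stood at 49.3 CPM ± 10.7 and 40.8 CPM ± 1.37 in the smaller and larger droplet classes. T cells, which were not tested, had a mean of 142.2 CPM in 2 control libraries, with 6 UMIs over all controls. Among mural nuclei, the cells that surround capillaries and arterioles, 8 UMIs gave 70.0 CPM (30.2 to 137.9) over all libraries.

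*Angpt1* was uneven within both of its main types. The 7 astrocyte clusters ran from 203.9 CPM (164.8 to 249.6) in a cluster with few UMIs per nucleus, led by *Mt1* and *Id4*, to 479.3 CPM (462.2 to 496.8) in the cluster led by *Bmpr1b*. The *Synpo2*-led cluster, 83.7% of which came from control libraries, had 450.1 CPM (426.0 to 475.3), and the cluster led by *C530044C16Rik* and *Slc1a2*, highest among astrocytes for *Vegfa*, had 365.3 CPM (335.9 to 396.7). Of the fibroblast clusters, that led by *Prg4* had 255.9 CPM (227.7 to 286.6) and that led by *Adamtsl3* 160.9 CPM (149.0 to 173.5). The *Flrt2*-led cluster, highest among fibroblasts for *Vegfa*, had 25.2 CPM (20.2 to 31.1), so that *Vegfa* and *Angpt1* were highest in different fibroblast clusters.

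*Flt1* was concentrated in endothelial cells. In endothelial cells of the controls it was at 2664, 2763, 2446 and 3500 CPM, and in fibroblasts at 89.4 CPM ± 38.7 (log2 difference 5.08 ± 0.53, 8 of 8 libraries, exact adjusted p = 0.0337). Myeloid cells followed with 18.1 CPM ± 11.1 (18.5 CPM after subtraction of free RNA). Free RNA itself stood at 30.7 CPM ± 8.37 in droplets of 1 to 100 UMIs and 18.0 CPM ± 7.84 in those of over 100 and up to 500 UMIs. OPCs had 7.0 CPM ± 8.51 and every other type tested less. Under a coarser clustering (Leiden resolution 1.5), where another set of nuclei was named committed OPCs, these were at 25.6 CPM. *Flt1* was among the genes that lead the endothelial cluster, although the 8 genes were left out of the clustering.

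Outside the endothelium, *Flt1* was concentrated in 1 fibroblast cluster and in mural nuclei. The cluster of 1024 fibroblast nuclei led by *Slc6a20a*, *Trpm3* and *Ranbp3l* had 262.5 CPM (246.9 to 278.9), whereas the other 3 fibroblast clusters had 15.3 to 44.5 CPM. In that cluster, the endothelial genes *Cldn5*, *Pecam1* and *Tie1* were at 9.95, 7.47 and 1.74 CPM, against 1490, 506.8 and 164.2 CPM in endothelial nuclei. The ratio of *Flt1* to these genes thus differed between the clusters. Mural nuclei held *Flt1* at 498.6 CPM (377.6 to 646.0), with *Cldn5* at 78.7 CPM and 0 UMIs of *Kdr* and of *Tek*, which allows up to 32.3 CPM of each (upper end of the exact 95% interval).

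*Kdr*, the receptor that carries most of the VEGF signal, was also highest in endothelial cells. Endothelial cells of the controls had 88.8, 80.1, 133.4 and 87.9 CPM, and fibroblasts 15.1 CPM ± 6.10 (log2 difference 2.83 ± 0.69, 8 of 8 libraries, exact adjusted p = 0.0337). The fibroblast clusters led by *Slc6a20a* and by *Prg4* had 33.1 CPM (27.7 to 39.2) and 33.4 CPM (23.7 to 45.6), and the other 2 had 6.2 CPM or less. OLs had 2.95 CPM ± 1.12 and astrocytes 0.733 CPM ± 0.44, with OLs higher in 8 of 8 libraries (0.98 ± 0.48, exact adjusted p = 0.0337). Free RNA held *Kdr* at 6.81 CPM ± 3.37 and 6.95 CPM ± 2.82 in the smaller and larger droplet classes, above both types.

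*Flt4* was sparse. In the controls, endothelial cells had 17.8, 53.4, 80.1 and 35.2 CPM from 2, 4, 9 and 2 UMIs. Myeloid cells followed at 2.02 CPM ± 2.41 (log2 difference 4.43 ± 1.01, 8 of 8 libraries, exact adjusted p = 0.0337). No UMI of *Flt4* was found in OPCs, committed OPCs or neurons of either group. For control OPCs a count of 0 allows up to 2.70 CPM (3 UMIs).

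*Tek*, the receptor of *Angpt1*, was likewise concentrated in endothelial cells. Its endothelial level in the controls was 381.9, 507.2, 453.7 and 492.5 CPM, a narrow spread. Neurons, which may not be part of the ON, had 19.3 CPM ± 5.73, astrocytes 7.86 CPM ± 0.80 and fibroblasts 7.05 CPM ± 2.30. Endothelial cells stood above neurons by a log2 difference of 4.99 ± 1.73 (8 of 8 libraries, exact adjusted p = 0.0337). Unlike *Flt1*, *Tek* was not raised in the fibroblast cluster led by *Slc6a20a*, with 7.47 CPM (5.0 to 10.7) there.

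**Figure D2:**
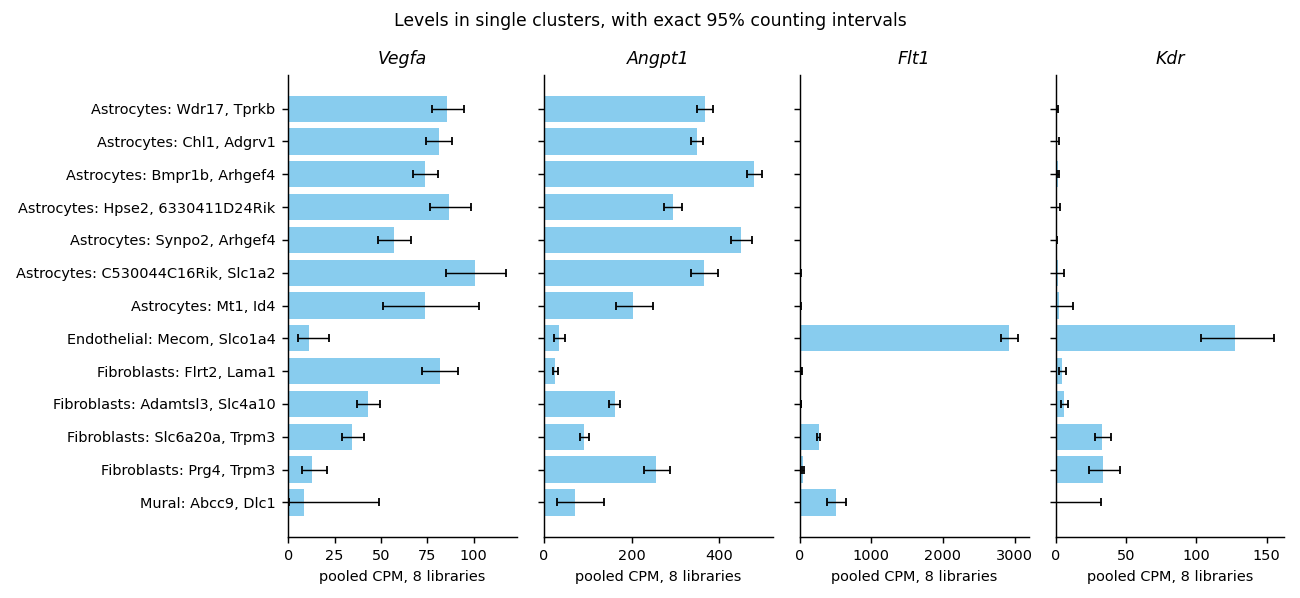
Level in CPM (x axis, linear and separate in each panel) of *Vegfa*, *Angpt1*, *Flt1* and *Kdr* in single clusters of astrocytes, endothelial cells, fibroblasts and mural cells (y axis, named by leading genes), pooled over 8 libraries, with exact 95% counting intervals. *Flt1* is highest in the endothelial cluster at 2922 CPM, followed by mural nuclei at 498.6 CPM and the fibroblast cluster led by *Slc6a20a* at 262.5 CPM.

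UMIs of the receptors were also counted in single endothelial nuclei. Of 280 endothelial nuclei with a median of 2175 UMIs, 89.6% (85.5 to 93, exact 95% interval) had a UMI of *Flt1*, 60.7% (54.7 to 66.5) of *Tek*, 24.6% (19.7 to 30.1) of *Kdr*, 26.1% (21.0 to 31.6) of *Vegfc* and 10.0% (6.75 to 14.1) of *Flt4*. For comparison, of the 7961 control OLs 61 had a UMI of *Flt1*, 32 of *Tek*, 66 of *Kdr* and 7 of *Flt4*, where the median over libraries of the median OL was 2791 UMIs. All of *Flt1*, *Kdr* and *Tek* were found in 45 endothelial nuclei, and these had a median of 3526 UMIs. The 19 nuclei with none of the 3 had a median of 900 UMIs. In nuclei this shallow a missing UMI does not show a missing transcript.

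The endothelial nuclei were not split into vessel types by clustering. They were divided by a UMI of marker genes of arterial, capillary or venous endothelium, and a nucleus could fall in several of these. *Vegfc* was at 255.9 CPM (208.2 to 311.2) in the 118 nuclei with an arterial marker and at 134.3 CPM (100.6 to 175.7) in the 162 without. It was at 147.3 CPM (111.9 to 190.4) in the 94 nuclei with a venous marker and at 242.5 CPM (196.2 to 296.5) in the 186 without, and at 142.9 CPM (108.5 to 184.7) in the 122 nuclei with a capillary marker and 250.3 CPM (202.5 to 306.0) in the 158 without. The intervals of *Vegfc* did not overlap in any of the 3 divisions, with the higher level in nuclei with an arterial marker and in those without a venous or capillary one. *Kdr* showed the other order, with 97.2 CPM (68.8 to 133.5) in nuclei with an arterial marker and 157.1 CPM (120.5 to 201.4) in those without, with overlapping intervals. It was at 149.9 CPM (114.1 to 193.3) with a venous marker and 104.7 CPM (75.1 to 142.0) without, and at 140.4 CPM (106.4 to 182.0) with a capillary marker and 113.3 CPM (82.0 to 152.6) without, again with overlap. *Tek* was at 460.6 CPM (395.7 to 533.0) and 468.9 CPM (403.7 to 541.5) in the arterial division, 401.3 CPM (341.2 to 469.0) and 528.5 CPM (458.9 to 605.6) in the venous and 443.5 CPM (381.1 to 513.3) and 487.4 CPM (419.7 to 562.9) in the capillary one, with overlapping intervals in each. *Flt1* was at 3170 CPM (2996 to 3352) with and 2676 CPM (2517 to 2843) without an arterial marker, 2538 CPM (2383 to 2700) and 3309 CPM (3131 to 3494) for the venous and 3211 CPM (3039 to 3390) and 2614 CPM (2454 to 2781) for the capillary markers, without overlap. In a further division, 23 nuclei had a UMI of a lymphatic marker. There *Vegfc* was at 68.4 CPM (25.1 to 148.9) and *Tek* at 216.6 CPM (130.4 to 338.2). The 257 nuclei without had 210.7 CPM (178.0 to 247.6) and 495.9 CPM (445.0 to 551.0), while intervals of *Flt1*, *Kdr* and *Flt4* overlapped. Nuclei with a marker UMI were deeper in each division (median UMIs 3373.5 with and 1920 without a venous marker). All of these are pooled counts with intervals for counting error only, and spread over libraries was not tested.

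Of the other ligands and receptors of the pathway, the co-receptors were found in several cell types. *Nrp1*, a co-receptor of *Vegfa*, was at 1191 CPM ± 219.7 in border-associated macrophages (2 control libraries with enough nuclei), 309.4 CPM ± 29.1 in myeloid cells, 242.6 CPM ± 22.6 in fibroblasts and 148.7 CPM ± 34.1 in endothelial cells. *Nrp2*, which pairs with *Flt4*, was at 283.0 CPM ± 36.0 in astrocytes and 247.3 CPM ± 99.5 in endothelial cells. *Angpt2*, which can oppose *Angpt1* at *Tek*, was at 74.9 CPM ± 38.5 in OPCs, 70.2 CPM ± 33.1 in neurons, 62.2 CPM ± 7.3 in astrocytes and 35.5 CPM ± 16.3 in endothelial cells. *Pgf*, a further ligand of *Flt1*, was highest in fibroblasts (19.8 CPM ± 3.7). *Tie1* and the phosphatase *Ptprb*, which act on *Tek* in endothelial cells, were at 145.1 CPM ± 48.2 and 1934 CPM ± 550.3 there.

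The genes most similar to each member were found by Pearson correlation of log2(CPM + 1) over the 32 control sums of 8 cell types, among 14098 genes, as a description. The sums share libraries and cell types, and their depth differs. *Flt4* was closest to *Cd93* (r = 0.94), *Bmx* and *Adcy4*, *Tek* to *Fgd5* (0.92), *Pglyrp1* and *Rph3al*, *Flt1* to *Tm4sf1* (0.92), *Tinagl1* and *Tbx3os1*, *Kdr* to *Sema3c* (0.89), *Foxf2* and *Ndufa4l2*, and *Vegfc* to *Megf6* (0.86), *Palmd* and *Rph3al*. All of these were highest in endothelial cells. *Angpt1* was closest to *Oplah* (0.85), *Glis3* and *Ccdc80*, all highest in astrocytes, and *Vegfb* to *Il11ra1* (0.89), *Rae1* and *Nup93*. *Vegfa* had the least close neighbours, namely *Abca8b* (0.78), *Bbof1* (0.76), *Efs* (0.75), *Ppp4r4* (0.75) and *Shc3* (0.74), of which *Abca8b*, *Efs* and *Shc3* were highest in OPCs.

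Between the genotypes, *Vegfa* was higher in OPCs of the libraries labelled cKO. Its level in OPCs was 53.7, 140.2, 89.8 and 58.8 CPM in the controls (from 20, 32, 26 and 13 UMIs in 115, 58, 83 and 60 nuclei). It was 315.9, 222.9, 173.9 and 240.4 CPM in the libraries labelled cKO (from 103, 74, 54 and 103 UMIs in 93, 104, 76 and 140 nuclei). The groups did not overlap, with the highest control (replicate 2) at 140.2 CPM below the lowest library labelled cKO (replicate 12) at 173.9 CPM. The means were 85.6 CPM ± 39.7 and 238.3 CPM ± 58.9 (SD, n = 4 each), and the log2 fold change was 1.5 (SE 0.24, 95% interval 1.02 to 1.98), a 2.83-fold difference with an edgeR adjusted p of 0.00071912. In the order of p, *Vegfa* was number 4 among 6121 genes tested in OPCs, of which 19 (0.31%) were called, 5 of them (0.0817%) as higher.

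The call of *Vegfa* in OPCs held under each of the 16 alternatives tried, with log2 fold changes of 1.29 to 1.80 and adjusted p-values of 1.37e-09 to 0.0218. The lowest, from edgeR without the filter on low counts, had 120522 degrees of freedom and rests almost wholly on the spread common to genes. With DESeq2 in place of edgeR the log2 fold change was 1.47 (adjusted p = 3.46e-05). With every nucleus thinned to 1000 UMIs it was 1.62 (edgeR adjusted p = 0.0218), and after subtraction of the free RNA profile 1.55 (edgeR adjusted p = 0.0103). Of the other 7 genes, none passed the filter on low counts in OPCs. *Vegfc* was at 0 to 10.4 CPM there in the controls and 12.3 to 16.1 CPM in the other group on 7 and 20 UMIs, and *Angpt1* at 17.5 to 27.2 CPM in the controls and 9.34 to 22.5 CPM in the other group on 26 and 20 UMIs. In neurons *Vegfc* lay the other way, at 14.1 to 22.3 CPM in the controls and 0 to 13.1 CPM in the libraries labelled cKO on 20 and 5 UMIs, and was not tested either. Of the 64 pairs of gene and cell type, only *Vegfa* in OPCs and *Vegfc* in OPCs and in neurons had groups without overlap. With 4 libraries per group, chance alone gives such a separation with a probability of 0.0286 for each pair. The share of all genes without overlap was not counted. The lack of overlap in *Vegfc*, on these few UMIs, is therefore not taken as a difference between the groups.

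**Figure D3:**
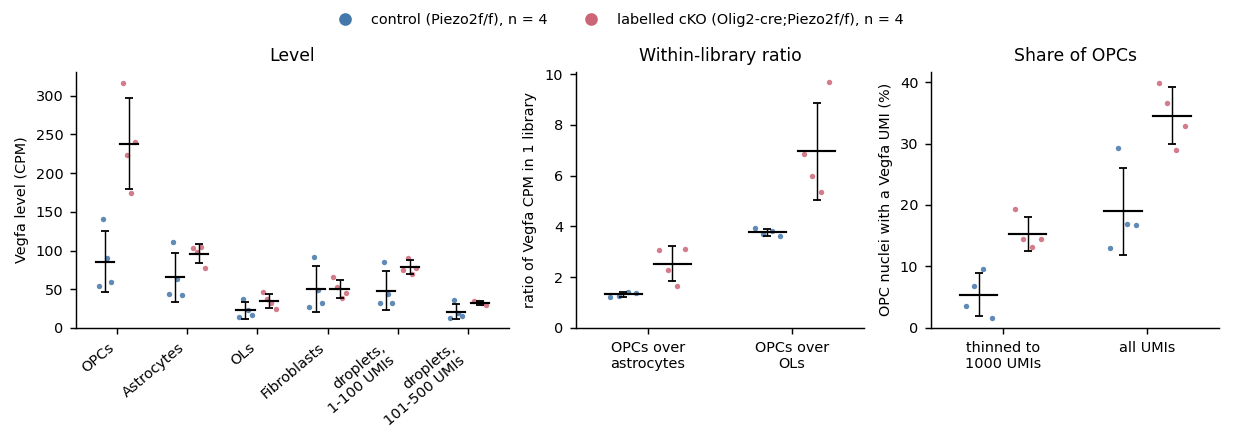
*Vegfa* by library in the control libraries and the libraries labelled cKO, shown as level in CPM in cell types and in droplets without a nucleus, as the ratio of its level in OPCs to that in astrocytes or OLs of the same library, and as the percentage of OPCs with a *Vegfa* UMI with and without thinning to 1000 UMIs. Points are libraries, with mean and SD (n = 4); the groups do not overlap in the OPC level (at most 140.2 CPM against at least 173.9 CPM), in either ratio or in the thinned share.

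The share of OPCs with a *Vegfa* UMI was a second reading of the same counts, since a higher level in every OPC would raise it as well as more OPCs with the transcript. With every nucleus thinned to 1000 UMIs, 3.54%, 6.90%, 9.64% and 1.67% of the OPCs in the controls had a *Vegfa* UMI, and 19.4%, 14.4%, 13.2% and 14.4% of those in the libraries labelled cKO. The groups did not overlap, with means of 5.44% ± 3.54 and 15.3% ± 2.75 (exact permutation test over libraries, two-sided; p = 0.0286, below which 2 groups of 4 libraries cannot go). Thinning left out 2 control nuclei and 1 nucleus of the other group. The median OPC of a library had, in the median over libraries, 3415 UMIs in the controls and 3145 in the libraries labelled cKO. Without thinning the shares were 19.0% ± 7.11 and 34.5% ± 4.68 (exact permutation p = 0.0571), and without cKO replicate 10 the thinned test gave p = 0.0571 as well. Myeloid cells, the lowest in *Vegfa* of the 8 types compared, had a thinned share of 0.731% in the controls and 0.944% in the other group (1849 and 1706 UMIs by the same measure), below the share in OPCs.

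Markers of other cell types were looked up in the same OPC sums. The summed level of 7 astrocyte markers was 783.5 to 918.7 CPM in the controls and 843.8 to 880.0 CPM in the libraries labelled cKO, and that of 7 OL markers was 2308 to 3404 CPM and 2665 to 3949 CPM. The lists of endothelial and mural markers, 8 genes each, were lower in the libraries labelled cKO without overlap, at 6.13 to 51.5 CPM against 54.3 to 113.9 CPM and at 6.44 to 25.7 CPM against 27.2 to 100.2 CPM. The lists of fibroblast, myeloid, neuron, OPC and committed OPC markers overlapped between the groups. Chance alone separates 2 groups of 4 libraries with a probability of 0.0286, and no test was run on these lists. *Flt1*, itself an endothelial gene, had 9 UMIs in OPCs of the controls and 1 in those of the other group. None of the markers in these lists was at 0 over the 8 libraries, and their part in the difference in *Vegfa* was not tested. *Vegfa* itself was at 13.3 and 11.0 CPM in endothelial cells of the 2 groups. OPCs made up 2.10% ± 0.22 and 2.20% ± 0.27 of nuclei (exact permutation test, adjusted p = 0.571).

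*Vegfa* was higher on average in other glia as well, without passing the test. In OLs it was at 13.6, 37.8, 23.6 and 16.3 CPM in the controls and 46.0, 37.2, 32.5 and 24.8 CPM in the libraries labelled cKO, with overlap (log2 fold change 0.60, SE 0.27, unadjusted p = 0.0427, edgeR adjusted p = 0.539). An unadjusted p under 0.05 was reached by 8.9% of all genes tested in OLs and 7.6% in astrocytes. In astrocytes it was at 44.2, 110.7, 63.4 and 42.4 CPM and at 102.8, 98.1, 105.0 and 77.8 CPM, with overlap through control replicate 2 (log2 fold change 0.57, SE 0.24, unadjusted p = 0.0364, edgeR adjusted p = 0.624). In committed OPCs 8 UMIs in the controls and 31 in the other group gave 36.8 CPM ± 32.0 and 97.6 CPM ± 47.1, too few to pass the filter. Fibroblasts showed 50.2 CPM ± 29.4 and 50.6 CPM ± 11.6 (log2 fold change 0.02, SE 0.28, 95% interval -0.57 to 0.61). Over all named nuclei the log2 fold change was 0.53 (SE 0.26, edgeR adjusted p = 0.730).

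Control replicate 2 was the highest control library for *Vegfa* in OPCs, committed OPCs, OLs, astrocytes, fibroblasts, endothelial cells and myeloid cells, and in droplets. Without it, the log2 fold change of *Vegfa* was 0.94 in OLs (edgeR adjusted p = 0.196) and 0.96 in astrocytes (edgeR adjusted p = 0.211). The free RNA in droplets of 1 to 100 UMIs moved in the same direction, with *Vegfa* at 31.6, 85, 44.0 and 31.7 CPM in the controls and 74.9, 90.8, 69.8 and 77.4 CPM in the libraries labelled cKO (log2 fold change 0.68, SE 0.24, unadjusted p = 0.0092, edgeR adjusted p = 0.999, where 7 of 11464 genes or 0.0611% were called). Without control replicate 2 this difference was called, at a log2 fold change of 1.11 (edgeR adjusted p = 0.0115). These droplets held 882675 to 1294855 UMIs in 674681 to 916077 barcodes per library, and 28 to 105 of the UMIs were of *Vegfa*. Droplets of over 100 and up to 500 UMIs held 19372794 to 28438858 UMIs in 63342 to 76411 barcodes. There *Vegfa* was at 13.3, 35.5, 19.9 and 15.7 CPM in the controls and 34.8, 33.1, 32.5 and 29.1 CPM in the libraries labelled cKO, with overlap through control replicate 2. Without that replicate edgeR called 0 genes there. The free RNA profile that was subtracted is that of the larger droplets, with *Vegfa* at means of 21.1 CPM in the controls and 32.4 CPM in the other group. After its subtraction the log2 fold change of *Vegfa* was 0.62 in OLs and 0.59 in astrocytes (neither called by edgeR). *Vegfa* in that profile lies below its mean in OLs, astrocytes and OPCs of the same group, so subtraction could do little to lower these levels. The part of free RNA in the differences was not tested.

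The level of *Vegfa* in OPCs was also set against that in other cells of the same library, whose sums share its free RNA and its preparation. The part of free RNA and of the preparation in the differences was not tested. The ratio of OPCs to OLs was 3.94, 3.71, 3.81 and 3.62 in the controls and 6.86, 5.99, 5.35 and 9.68 in the other group. The ratio of OPCs to astrocytes was 1.22, 1.27, 1.42 and 1.39, and 3.07, 2.27, 1.66 and 3.09, in the same order. The groups did not overlap in either ratio (log2 differences 0.85 and 0.89, exact permutation test over libraries, two-sided, p = 0.0286 for each, again the lowest it can give). The control ratios lay close together, but they rest on 91 *Vegfa* UMIs in the OPCs of all controls together. Counting error alone is wider than their spread, so this closeness does not measure how alike the control libraries were.

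The difference between the genotype effect in OPCs and that in the other type was tested across all genes in edgeR, with the library as a block. Against OLs, the effect on *Vegfa* was 0.88 larger on the log2 scale (SE 0.23, edgeR adjusted p = 0.0498, where 28 of 15535 genes or 0.18% were called) and against astrocytes 0.94 larger (SE 0.22, edgeR adjusted p = 0.0341, where 18 of 13502 genes or 0.133% were called). Both lie near the threshold. Against OLs the call was lost on leaving out any library but cKO replicate 12, and against astrocytes on leaving out any but control replicate 3 or cKO replicate 12, while the difference stayed between 0.69 and 1.11. Without the library block the adjusted p was 1.00 for both.

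No other gene of the 8 was called between the genotypes in any cell type. Of 64 pairs of gene and cell type, 23 passed the filter on low counts and 1 was called. In endothelial cells, where 0 of 2257 genes (0%) were called by edgeR and 0 by DESeq2, and 94 had an unadjusted p under 0.05, 4 of the 8 genes were tested. *Kdr* was at 88.8, 80.1, 133.4 and 87.9 CPM in the controls and 118.7, 226.9, 131.7 and 136.9 CPM in the other group (log2 fold change 0.59, SE 0.32, 95% interval -0.09 to 1.27, edgeR adjusted p = 0.996). The groups overlapped through control replicate 3. *Vegfc* was at 124.3, 53.4, 293.6 and 35.2 CPM and at 118.7, 238.9, 212.7 and 312.8 CPM (0.68, SE 0.42, 95% interval -0.20 to 1.55, edgeR adjusted p = 0.996), again with overlap.

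*Flt1* and *Tek* were measured more closely in endothelial cells. *Flt1* lay between 2446 and 3500 CPM in the controls and between 3010 and 3107 CPM in the libraries labelled cKO (log2 fold change 0.11, SE 0.15, 95% interval -0.21 to 0.44). *Tek* lay between 381.9 and 507.2 CPM and between 420.7 and 561.3 CPM (0.08, SE 0.21, 95% interval -0.36 to 0.52). These intervals, from 116 and 164 nuclei in 4 libraries each, do not show that the levels were alike. Endothelial nuclei made up 0.781% ± 0.20 and 0.864% ± 0.24 of nuclei and mural nuclei 0.224% ± 0.08 and 0.161% ± 0.07 (exact permutation tests, adjusted p = 0.571 for each).

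In astrocytes, 5 of the 8 genes were tested and 0 were called, with a median log2 fold change of 0.22, where edgeR called 0 of 14333 genes (0%), DESeq2 called 9 and 1090 had an unadjusted p under 0.05. *Angpt1*, with 4804 UMIs in the controls and 5007 in the other group, had a log2 fold change of 0.05 (SE 0.12, 95% interval -0.21 to 0.31, edgeR adjusted p = 0.947), the narrowest interval among the ligand values tested. *Vegfb* had 0.25 (SE 0.16), *Tek* 0.22 (SE 0.25) and *Flt1*, on 62 and 38 UMIs, -0.73 (SE 0.47). In fibroblasts, where edgeR called 0 of 12468 genes (0%), DESeq2 called 2 and 490 had an unadjusted p under 0.05, 7 genes were tested and 0 were called, with a median log2 fold change of 0.10. The largest of these values was that of *Angpt1*, at 67.2 to 115.5 CPM in the controls and 95 to 157.2 CPM in the libraries labelled cKO (log2 fold change 0.33, SE 0.18, edgeR adjusted p = 1.00).

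In OLs, where 12 of 14465 genes (0.083%) were called, 6 of the 8 genes were tested and 0 were called, with a median log2 fold change of 0.12 beside 0.0185 over all genes. Apart from *Vegfa*, their log2 fold changes ran from -0.21 (*Angpt1*, SE 0.19) to 0.45 (*Tek*, SE 0.38), on levels of 1.57 to 12.3 CPM in either group. In committed OPCs (0 of 1242 genes called, 0%), myeloid cells (3 of 6243, 0.0481%) and neurons (0 of 3985, 0%), no gene of the 8 passed the filter. DESeq2 called 0 genes in committed OPCs and 2 in neurons, and 107 and 189 genes had an unadjusted p under 0.05 in edgeR. Over all named nuclei, where 1 of 18122 genes (0.00552%) was called, 7 were tested and 0 were called.

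The other genes of the pathway were taken from 3 lists. Of 8 further ligands, receptors and co-receptors, 23 genes of VEGF receptor signalling and the angiogenic response and 21 genes of hypoxia sensing and response, 0 were called by edgeR and 0 by DESeq2 in any cell type. Over all genes tested, edgeR called between 0% (astrocytes among others) and 0.31% (OPCs) in a cell type. With lists this short, 0 calls do not show that their genes were unchanged. In OPCs, 2, 7 and 7 genes of these lists were tested, with median log2 fold changes of 0.25, 0.09 and -0.27 beside 0.0059 over all genes. In endothelial cells 13 genes of the signalling list had a median of -0.11 beside 0.0046 over all genes.

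The hypoxia list was of interest beside *Vegfa*, a known target of the hypoxia-inducible factors. In OPCs 3 of its 7 tested genes were higher in the libraries labelled cKO, and 1 had an unadjusted p under 0.05, where 467 of all genes (7.63%) did. *Hif1a*, the oxygen-regulated subunit, had a log2 fold change of 0.44 (SE 0.29), *Epas1*, its paralogue, 0.0099 (SE 0.20), *Egln1*, an oxygen sensor that marks both for degradation, -0.57 (SE 0.34), and *Ndrg1* and *P4ha1*, known hypoxia targets, 0.14 (SE 0.22) and -0.27 (SE 0.20). *Arnt2*, a partner subunit, was lower by the unadjusted test (-0.59, SE 0.17, edgeR adjusted p = 0.175), and *Arnt* had -0.40 (SE 0.25). The activity of these factors is set on the protein and was not measured.

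Without adjustment, further genes of the lists had a p under 0.05, and none was called. Over all genes tested, the share with such a p was 8.9% in OLs, 7.63% in OPCs, 7.6% in astrocytes, 3.93% in fibroblasts, 4.16% in endothelial cells, 5.93% in myeloid cells and 3.87% in droplets of 1 to 100 UMIs. *Arnt2* was lower in OLs (-0.25, SE 0.09) and astrocytes (-0.31, SE 0.11) too, *Ankrd37* was higher in astrocytes (0.73, SE 0.28) and *Arnt* lower in fibroblasts (-0.24, SE 0.11). *Nrp1* was lower in astrocytes (-0.37, SE 0.16) and fibroblasts (-0.34, SE 0.12), and *Ets1*, an endothelial transcription factor, was lower in OPCs (-0.63, SE 0.30) and endothelial cells (-0.57, SE 0.26). *Pdgfb* was higher in myeloid cells (0.42, SE 0.20). In droplets *Slc2a1* was higher (0.39, SE 0.16) and *Pgk1* lower (-0.31, SE 0.14). The edgeR adjusted p-values of these differences lay between 0.436 and 1.00.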

How the data were processed

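Nuclei from 6 pooled ONs per library were profiled with the 10x 3-prime v3.1 kit. The deposited values are raw UMI counts per gene and barcode, which the authors made with Cell Ranger (7.0.0 per the labels, 4 per the file headers) against GRCm39. Whether intronic reads were counted is not given in the sources used here. The counts hold every barcode and none of the later steps of the study (removal of free RNA, doublet removal, integration). Here doublets were removed and, in an alternative, free RNA was subtracted, both as separate computations, and libraries were not integrated.

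Nuclei were called from 500 UMIs (false discovery rate 0.01) and kept at 200 genes or more and at most 5% mitochondrial UMIs, and Scrublet removed 0.8% doublets per 1000 nuclei. Clustering (scanpy 1.11.5, 3000 variable genes without the 8 genes and their lists, 30 components, Leiden resolution 3) gave 41 clusters, named from markers by rules set after the clusters were seen. Sums of at least 10 nuclei were tested with edgeR 4.0.16 (TMM, filterByExpr, glmQLFit and glmQLFTest), checked on simulated data; alternatives used DESeq2 1.42.0, another normalization, no filter, thinning, other nuclei, subtraction of free RNA and leaving out each library. Intervals of fold changes are t-based from the SE and its degrees of freedom.

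The 8 genes and the lists were chosen with earlier results of these data known. The text names the 8 genes in every type, *Piezo2* in OLs and *Olig2* in OPCs, list genes past a test, *Nrp1*, *Nrp2*, *Angpt2*, *Pgf*, *Tie1* and *Ptprb* for levels, and the 5 genes most like *Vegfa* and 3 most like each other gene. The *Vegfc* and *Angpt1* values in OPCs, *Vegfc* in neurons, the marker sums and the hypoxia genes below the test were chosen after their values were seen. The result of 1 list gene is not reported here.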

Additional observations from a re-analysis of the deposited data

Results flagged for a closer look

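Among 46 groups of 4 libraries with a tested gene, 2 had a library farther from the others than Dixon's limit for 4 values allows, and chance gives about 1 in 20. Both were *Kdr* in endothelial cells. In the controls, replicate 3 stood at 133.4 CPM above the other three at 80.1 to 88.8 CPM, and in the libraries labelled cKO, replicate 11 stood at 226.9 CPM above the other three at 118.7 to 136.9 CPM. These levels rest on 36 and 64 UMIs per group.

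The difference in *Vegfa* between the groups was larger in OPCs than in OLs by 0.88 and larger than in astrocytes by 0.94 on the log2 scale, by a test of the difference itself across all genes (edgeR adjusted p = 0.0498 and 0.0341). Both calls were lost without the library block (adjusted p = 1.00), after thinning, after subtraction of free RNA and on leaving out 7 of the 8 libraries in turn for OLs and 6 of 8 for astrocytes, and the call against OLs also without the filter on low counts (adjusted p = 0.106).

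*Angpt1* was at 843 CPM in an unnamed cluster of 59 nuclei led by *Prl*, the gene of prolactin, which is above every named cluster with at least 20 UMIs of *Angpt1*. All of its nuclei came from control libraries and 91.5% from control replicate 3, and it entered no comparison. Whether these nuclei belong to the ON was not tested.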

How the results depend on the processing

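*Vegfa* in OPCs kept its direction and its call in each alternative tried. The other 33 pairs of gene and comparison gave 530 values under alternatives, of which 1 passed the test (*Vegfa* in droplets of 1 to 100 UMIs without control replicate 2, where single libraries left out gave 0.48 to 1.11 over both droplet classes) and 64, in 14 pairs, had the other sign. No paired analysis was possible because the groups share no replicate numbers. The cause was not tested for any of the changes below.

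The number of genes called moved with the tool, the filter, thinning, subtraction of free RNA and the libraries used. DESeq2 called 54 genes in OLs, 9 in astrocytes, 2 in fibroblasts, 0 in myeloid cells, 2 in neurons and 21 over all named nuclei. Without the filter on low counts edgeR called 44 in OLs, 3 in committed OPCs, 35 in OPCs, 30 in astrocytes, 50 in fibroblasts, 18 in endothelial cells, 24 in myeloid cells, 41 in neurons and 2 over all named nuclei. Thinning gave 8 in OPCs, 3 in astrocytes and 0 over all named nuclei, subtraction of free RNA 5 in OPCs and 0 in myeloid cells, and Leiden resolution 1.5 gave 2 in neurons. Leaving out single libraries gave 12 to 23 in OPCs, 0 to 4 in astrocytes, 0 to 2 in endothelial cells, 0 to 5 in myeloid cells, 0 to 4 in neurons and 0 to 1 over all named nuclei.

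The larger effect on *Vegfa* in OPCs than in OLs lost its call without the library block (0.91, where the library number is the block and marks no pairs between groups), without the filter (0.88), after thinning (0.85) and after subtraction of free RNA (0.91), and ranged from 0.69 to 0.98 when libraries were left out. That over astrocytes lost it without the block (0.94), after thinning (1.00) and after subtraction (0.97), and ranged from 0.82 to 1.11. The difference in the share of OPCs with a *Vegfa* UMI was 15.6 percentage points without thinning (exact permutation p = 0.0571) and, with libraries left out, 8.55 to 11.3 with thinning and 13.6 to 19.0 without it.

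None of the log2 fold changes whose sign turned had passed the test. In fibroblasts, *Vegfa* was -0.0067 after subtraction, *Flt1* 0.0052 with DESeq2, 0.038 after thinning, 0.0056 in nuclei of at least 1000 UMIs and 0.022 after subtraction, and *Tek* -0.091 at resolution 1.5. Over all named nuclei, *Vegfc* was -0.27 after thinning and -0.043 at resolution 1.5, and *Flt1* -0.0065 with 2 times the doublets removed and -0.026 at resolution 1.5. In droplets of over 100 and up to 500 UMIs, an alternative chosen after seeing the data, *Flt1* was -0.15 (DESeq2 -0.16) and *Angpt1* -0.16 (DESeq2 -0.17). With single libraries left out, *Angpt1* ran from -0.015 to 0.14 in astrocytes and -0.20 to 0.16 in droplets of both classes. *Flt1* ran from -0.24 to 0.36 in fibroblasts, -0.16 to 0.44 in OLs, -0.22 to 0.29 over all named nuclei and -0.31 to 0.25 in droplets of both classes, and *Kdr* from -0.096 to 0.43 in OLs. *Tek* ran from -0.032 to 0.35 in astrocytes, -0.17 to 0.26 in fibroblasts, -0.011 to 0.14 in endothelial cells and -0.031 to 0.21 over all named nuclei. *Vegfa* in fibroblasts ran from -0.17 to 0.39, and *Vegfc* from -0.21 to 0.061 in fibroblasts and -0.31 to 0.37 over all named nuclei.

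With a pseudocount of 5 CPM the order of low neighbours turned for *Vegfb* in OLs and endothelial cells (-0.033), *Vegfc* in committed OPCs and myeloid cells (0.015), *Flt1* in astrocytes and neurons (-0.19), *Flt4* in myeloid cells and fibroblasts (0.051), *Angpt1* in endothelial cells and OPCs (0.036) and *Tek* in committed OPCs and OLs (0.29), none of them past the test. Under other settings, 183 values of control levels stayed within 1 SD of those given and 9 moved further. At resolution 1.5 committed OPCs were at 69.0 CPM for *Vegfa*, above astrocytes and fibroblasts, 25.6 CPM for *Flt1*, above OPCs and myeloid cells, and 63.6 CPM for *Angpt1*. The group so named was then another set of nuclei, with 8560 genes past the filter on low counts against 1242 in the main setting. Its levels are therefore not those of the same cells. By the mean of CPM per nucleus, committed OPCs of the main setting were at 55.1 CPM for *Vegfb* and 23.2 CPM for *Kdr*. Subtraction of free RNA gave 8.82 CPM for *Vegfb*, 0.890 CPM for *Flt1* and 1.81 CPM for *Angpt1* in OLs and 0.0921 CPM for *Kdr* in astrocytes. Depth limits what OPCs and endothelial cells can show, since 7 of the 8 genes in OPCs and 4 of the 8 in endothelial cells had too few UMIs to be tested.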
